A study of Mus musculus with 2 samples.

Results

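The first day of organ culture was examined in the somatic cells of the foetal mouse testis. Of the 39 somatic libraries of the series used here, 8 are XY libraries that bracket this day. There were 4 libraries of E12.5 testes taken before culture (0 h, replicates 2, 3, 5 and 6) and 4 of E12.5 testes kept for 24 h with DMSO, the vehicle of the inhibitors used elsewhere in the study (replicates 2, 3, 4 and 5). All 8 were among the libraries numbered 1 to 20 in the labels. The embryos were of the genotype that the labels call WT, from Oct4-eGFP males on a 129svJT2 background crossed to ASMU Swiss females, so that germ cells carried GFP, and the sex of each embryo was read from the presence of testis cords. Gonads were cultured on membranes with the mesonephros attached, in a medium with foetal calf serum that was renewed daily. The mesonephros was then removed, several gonads were pooled for each library and GFP-negative cells were sorted, so each replicate is a pool and each library is a mixture of every somatic cell type that the gate admits. XX libraries of the same strain, set and time points (4 at 0 h and 4 at 24 h with DMSO) were used only where a change in the testis was compared with that in the ovary. Culture, DMSO and 24 h of development move together between the 2 XY groups and cannot be told apart, since uncultured gonads of the later age were not analysed here.

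At E12.5 the testis has newly formed cords, in which Sertoli cells enclose the germ cells. Sertoli cells are specified by Sry and Sox9 and send signals such as Desert hedgehog (Dhh) to the interstitium, where foetal Leydig cells, the source of androgens, arise from progenitors. Endothelial cells form an arterial vessel along the testis surface, and peritubular myoid cells and pericytes surround cords and vessels. In any cell, the genes of sterol synthesis are switched on by SREBP2 when membrane sterol is low, and those of glycolysis are among the targets of the oxygen-regulated HIF factors.

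Library depth and composition differed between the 2 XY groups. Total counts were 1886444 to 2401116 at 0 h and 2605556 to 4836550 at 24 h, without overlap (2-sided exact permutation test of 4 against 4, p = 0.0286, the smallest this design allows). The erythroid marker list took 1.48 to 1.86% of counts at 0 h and 0.297 to 0.811% at 24 h, and mitochondrially encoded genes 1.45 to 1.62% and 1.00 to 1.31%. The largest count of any gene stayed between 8100 and 9710 in all 8 libraries whatever the total. The median log2 fold change between 24 h and 0 h fell with abundance, from 0.22 over the 1682 genes with a mean count of at most 10 to -0.35 over the 105 genes above 2000. Between the deepest and the shallowest 24 h library, which share a treatment, the same medians were 0.08 and -0.49. For this reason each count below was also taken without the 2 deepest 24 h libraries (replicates 3 and 4) and with offsets that follow the trend with abundance. As a check of the labels, Xist, the transcript of the inactive X, had 3 to 10 counts in each XY library, and the Y-linked Ddx3y had 100 to 253. Correlations of log2 CPM were 0.962 to 0.976 within the groups and 0.922 to 0.953 between them.

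**Figure D1:**
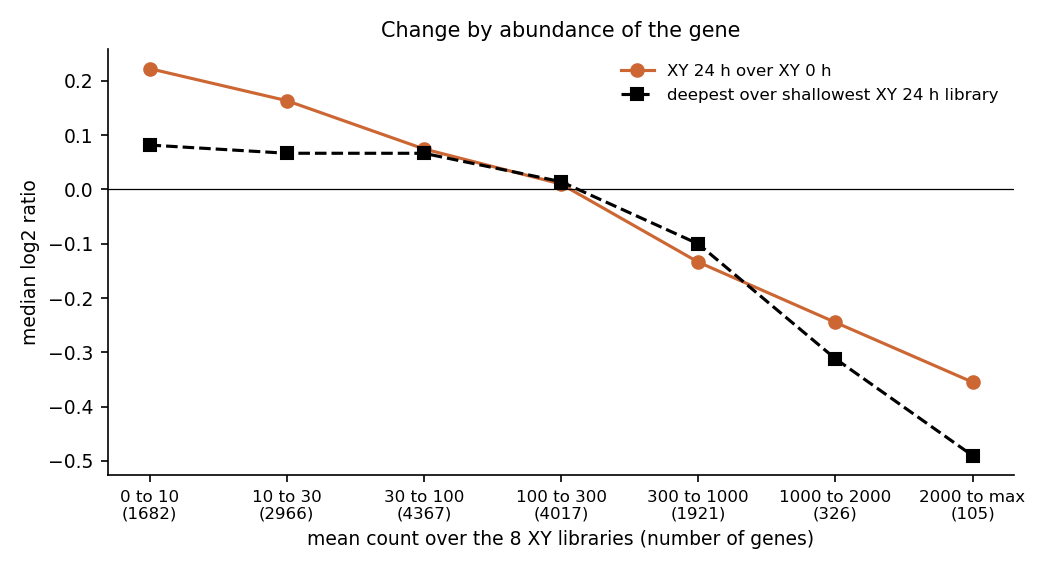
Median log2 ratio (y axis) of genes binned by their mean count over the 8 XY libraries (x axis, with the number of genes per bin), for XY 24 h over XY 0 h (circles) and for the deepest over the shallowest XY 24 h library (squares). Both lines fall with abundance, to -0.35 and -0.49 in the bin above 2000 counts.

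Across the 15390 genes tested, 2203 (14.3%) passed an FDR of 0.05 with a change of at least 1.5-fold (edgeR quasi-likelihood test with Benjamini-Hochberg adjustment, 4 against 4). Of these, 1348 genes (8.76% of those tested) rose over the first day and 855 (5.56%) fell, and 308 changed more than 4-fold. "Rose" and "fell" are used below only of genes past both limits. The median log2 fold change of all genes was 0.03. The 4 values at 24 h lay all above or all below the 4 at 0 h in 3377 genes (21.9%). Without TMM composition factors, which centre the bulk of genes on no change, log2 fold changes moved up by a median of 0.14 and the calls were 1915 higher and 560 lower, so that 77.4% of calls were higher against 61.2%. When the 1.5-fold limit was part of the test itself, 694 genes passed with edgeR's glmTreat and 426 with limma's voom, quality weights and treat. Without the 2 deepest 24 h libraries 1345 genes were called, 802 of them higher.

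**Figure D2:**
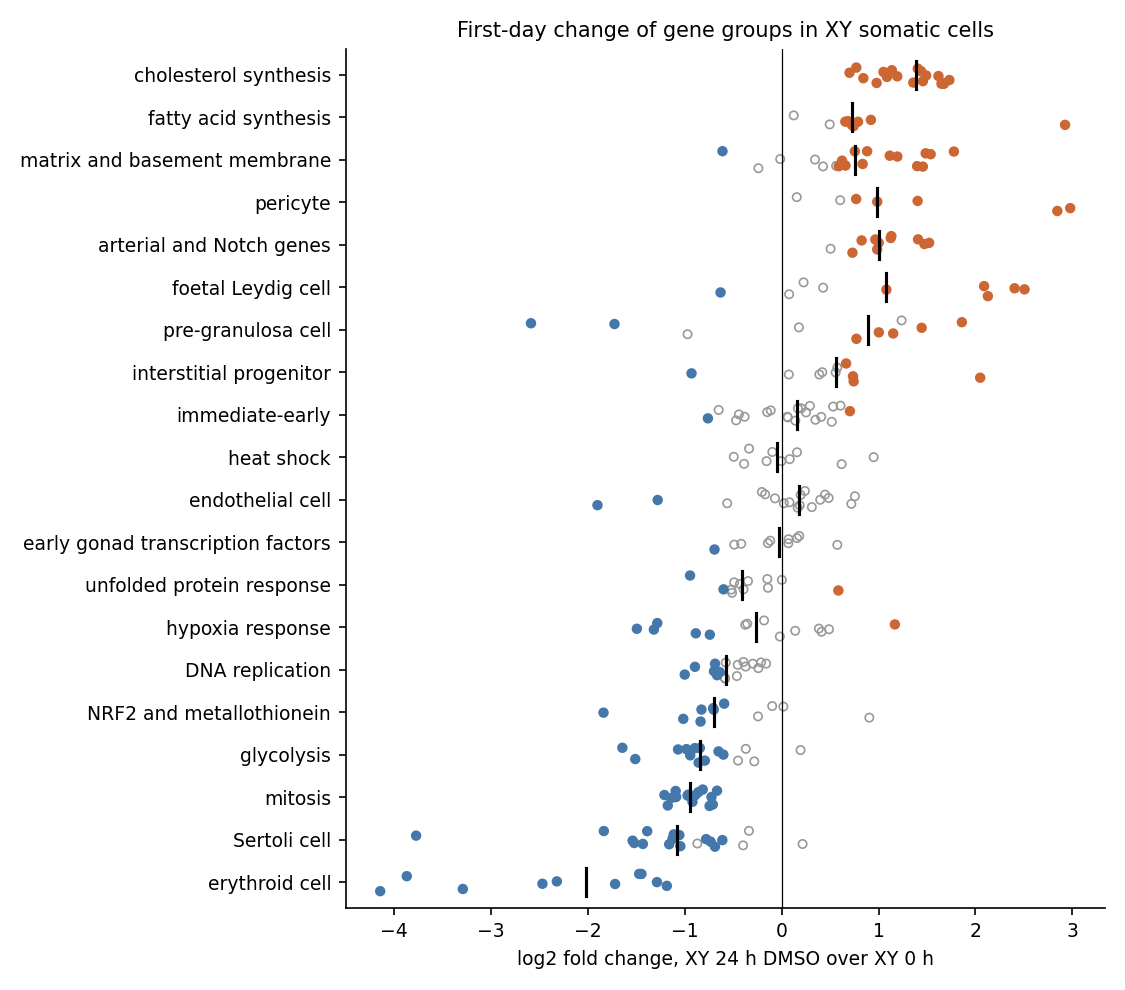
Log2 fold change of each tested member of 20 gene groups, XY 24 h DMSO over XY 0 h (x axis). Filled points passed the test (orange rose, blue fell), open points did not, and black bars are group medians, from 1.38 for cholesterol synthesis to -2.02 for erythroid markers.

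The enzymes of cholesterol synthesis rose together. All 18 tested members of the list rose, where 8.76% of all genes did. Each had 24 h values entirely above its 0 h values, where 21.9% of all genes had no overlap in either direction. Their median log2 fold change was 1.38. Hmgcs1, which makes the HMG-CoA of the mevalonate pathway (chromosome 13, 120151915 to 120170470 on the forward strand of GRCm39), stood at 129, 134, 150 and 122 CPM (counts scaled to a common library size with TMM factors) before culture. After 24 h it stood at 281, 316, 284 and 293 CPM, a log2 fold change of 1.14 ± 0.10 (SE; edgeR FDR 3.56e-13). The culture values formed a tight group about 2.20-fold above the 0 h ones. The largest increases were in later steps, namely Msmo1, a sterol demethylase (1.73 ± 0.16), Mvd, which makes isopentenyl diphosphate (1.68 ± 0.19), and Lss, which closes the sterol ring (1.67 ± 0.18). The regulators rose too, Insig1, which retains SREBP proteins in the endoplasmic reticulum, by 1.41 ± 0.21 and Srebf2, the gene of SREBP2, by 0.98 ± 0.13. The smallest increase was that of Mvk, mevalonate kinase (0.70 ± 0.14, FDR 9.5e-05).

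Summed over the list, the sterol genes held 812, 806, 750 and 754 CPM at 0 h and 1688, 1778, 1854 and 1888 CPM at 24 h. The same 18 genes rose without composition factors, without the 2 deepest 24 h libraries and with abundance offsets, while 15 passed glmTreat and 13 passed voom with treat. In XX cells 17 of the 18 rose, where 806 of 15390 genes did, with a median log2 fold change of 1.23. The difference between XY and XX was called for none of the 18. The unadjusted difference was largest for Idi1, an isomerase of the pathway (XY 1.62, XX 0.65, difference 0.97 ± 0.45, edgeR FDR 0.234).

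The promoter of Hmgcs1 is shown because it carries the only match of the cholesterol list to a sterol regulatory motif. It covers 250 bases before to 50 after the annotated start (RefSeq, GRCm38.p6, chr13:119690101-119690400, forward strand, 5′ to 3′), and the capitals mark the motif TCACNCCAC, searched on both strands.
Hmgcs1: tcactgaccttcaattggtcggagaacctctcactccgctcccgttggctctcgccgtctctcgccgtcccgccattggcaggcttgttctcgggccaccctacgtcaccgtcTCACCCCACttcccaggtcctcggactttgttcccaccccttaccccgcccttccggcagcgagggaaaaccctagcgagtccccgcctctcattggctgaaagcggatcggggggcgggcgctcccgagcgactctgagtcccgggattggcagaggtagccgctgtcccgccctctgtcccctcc
Of the 19 genes in the list 12 had a RefSeq promoter, and 1 of them (8.33%) held this motif, against 1.44% of 27025 genes. The motif was also in 1 of 12 Sertoli marker promoters (8.33%) and 1 of 14 glycolytic ones (7.14%). Most tested members of those lists fell. No other list searched had a match, the fatty acid list among them. With 1 match per list, these shares do not set the cholesterol list apart. The motif was added after the expression results were seen. A match describes letters only, and nothing was measured at this site.

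Of 9 genes of fatty acid synthesis 7 rose (background 8.76%), with a median log2 fold change of 0.72. Scd1, a desaturase that puts the first double bond into long-chain fatty acids (chromosome 19, 44382894 to 44399154, reverse strand), had 5.18, 1.73, 2.85 and 3.07 CPM at 0 h and 18.6, 20.3, 32.4 and 27.1 CPM at 24 h (2.93 ± 0.30, FDR 9.05e-11). Fasn, fatty acid synthase, rose by 0.92 ± 0.11, from 115 to 150 CPM to 221 to 265 CPM. Acaca, the carboxylase ahead of it, had a log2 fold change of 0.50 and lay under the 1.5-fold limit, which it passed without 0 h replicate 6 (0.59). Scd2, the main desaturase gene of foetal tissue, had 491 to 558 CPM at 0 h and 513 to 627 CPM at 24 h (0.13 ± 0.11, FDR 0.455). In XX cells all 9 genes rose (background 806 of 15390), Scd2 by 0.93. The XY and XX changes of Scd2 differed by -0.80 ± 0.16 (FDR 0.000395).

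Glycolytic genes went down. Of 15 tested members 11 fell (background 5.56%) and none rose, and the median log2 fold change was -0.84. Ldha, the lactate dehydrogenase subunit that turns pyruvate to lactate (chromosome 7, 46490899 to 46505061), had 677, 647, 566 and 499 CPM before culture and 225, 211, 185 and 219 CPM after it. This was a decrease of 2.85-fold with a wide gap between the groups (-1.51 ± 0.11, edgeR FDR 3.13e-15). Eno1, enolase, stood at 681, 709, 647 and 665 CPM and then at 241, 194, 199 and 233 CPM (-1.64 ± 0.12, FDR 3.13e-15). Pfkl, a phosphofructokinase subunit, fell by 1.07 ± 0.13 on the log2 scale, Aldoa, aldolase, by 0.98 ± 0.10, Pkm, pyruvate kinase, by 0.94 ± 0.10 and Gapdh by 0.86 ± 0.12. Pgk1, a phosphoglycerate kinase with few counts, had 15.6 to 19.5 CPM at 0 h and 7.44 to 11.4 CPM at 24 h (-0.90 ± 0.27, FDR 0.0131), a call lost without 24 h replicate 3 (-0.79, FDR 0.0589). The hexokinases Hk1 (-0.28) and Hk2 (-0.37), the glucose transporter Slc2a3 (0.20) and Pfkp (-0.45) did not pass. Slc2a1, the other glucose transporter, lay at the limit (-0.60 ± 0.16) and its call was lost without 0 h replicate 2 (-0.52) or 24 h replicate 2 (-0.51).

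The summed level of the glycolytic list was 3879, 3788, 3794 and 3513 CPM at 0 h and 1903, 1666, 1728 and 1904 CPM at 24 h. Counts of members that fell were 9 without composition factors, 10 without the 2 deepest libraries, 10 with abundance offsets and 5 with glmTreat. Among XX cells 6 fell (background 362 of 15390) and the median was -0.39. The difference between XY and XX passed the test for Aldoa, which had -0.98 in XY and -0.32 in XX (difference -0.67 ± 0.15, FDR 0.00147).

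A list of other hypoxia-response genes was mixed, with 5 of 14 tested members lower (background 5.56%), 1 higher and a median of -0.27. Pdk1, a kinase that inhibits pyruvate dehydrogenase, had 45.1, 51.3, 49.0 and 40.0 CPM at 0 h and 15.7, 17.6, 20.9 and 19.3 CPM at 24 h (-1.32 ± 0.17, FDR 2.24e-08). Ero1a, an oxidase of the endoplasmic reticulum, fell by 1.28 ± 0.18, and P4ha1, a collagen prolyl hydroxylase subunit, by 0.74 ± 0.16. Bhlhe40, a transcriptional repressor, rose by 1.17 ± 0.22. Vegfa, the endothelial growth factor, stayed within its spread, with 45.2 to 59.4 CPM before and 48.3 to 67.7 CPM after culture (0.14, FDR 0.668).

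The promoters of Ldha and Pgk1 are shown because both genes fell and both hold more than 1 copy of ACGTG, the core of the HIF binding site. Capitals mark each match on either strand, together with the surrounding bases of an E-box (CACGTG), which contains the core (RefSeq, GRCm38.p6, chr7:46845554-46845853 and chrX:106186850-106187149, both forward, 250 bases before to 50 after the start).
Ldha: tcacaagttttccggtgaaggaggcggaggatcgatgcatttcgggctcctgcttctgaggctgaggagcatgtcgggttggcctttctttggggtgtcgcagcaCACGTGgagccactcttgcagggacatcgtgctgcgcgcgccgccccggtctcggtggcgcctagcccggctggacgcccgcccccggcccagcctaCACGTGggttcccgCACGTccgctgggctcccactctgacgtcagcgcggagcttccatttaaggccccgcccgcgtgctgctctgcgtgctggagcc
Pgk1: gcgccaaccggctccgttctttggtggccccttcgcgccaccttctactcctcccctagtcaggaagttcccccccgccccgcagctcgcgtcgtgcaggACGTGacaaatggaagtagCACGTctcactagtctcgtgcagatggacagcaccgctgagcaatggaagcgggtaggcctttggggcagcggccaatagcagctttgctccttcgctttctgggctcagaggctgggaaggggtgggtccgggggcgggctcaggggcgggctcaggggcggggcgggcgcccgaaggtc
The Ldha sequence has 3 capital runs, from -145 to -34 relative to the start, and the Pgk1 sequence has 2, at -150 and -131. The core was present in 9 of the 14 glycolytic genes with a RefSeq promoter (64.3%), against 21.8% of 27025 genes. Its share was above 21.8% in each of the other lists searched too. It ranged from 25% in the cholesterol list, which rose, to 76.9% in the hypoxia list, which was mixed. In the mitosis list it was 35.7%. A match describes letters only, since no factor binding was measured.

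Sertoli cell markers declined in the testis. Of 20 tested markers 16 fell (background 5.56%) and none rose, with a median log2 fold change of -1.08. In these bulk libraries fewer Sertoli cells and less RNA per Sertoli cell cannot be told apart. Sox9, the transcription factor that commits Sertoli cells (chromosome 11, 112673009 to 112678586), had 657, 683, 688 and 640 CPM at 0 h and 411, 316, 292 and 267 CPM at 24 h, a 2.08-fold decrease (-1.06 ± 0.18, edgeR FDR 1.05e-05). All 4 values after culture lay below the lowest before it. Dhh, the hedgehog ligand of Sertoli cells (chromosome 15, 98789033 to 98796439, reverse strand), stood at 219, 214, 159 and 191 CPM and then at 94.8, 53, 67.7 and 54.2 CPM (-1.54 ± 0.21, FDR 9.77e-08). Fgf9, the growth factor that sustains Sox9 expression, had 56.0, 54.2, 44.2 and 45.2 CPM and then 16.1, 19.8, 22.6 and 13.8 CPM (-1.43 ± 0.22, FDR 1.51e-06). The largest decrease of the list was that of Cbln4, a secreted cerebellin, with 22.8, 8.07, 15.2 and 14.9 CPM at 0 h and 1.07, 0, 1.92 and 1.18 CPM at 24 h (-3.77 ± 0.61, FDR 3.55e-06, and -4.41 without 24 h replicate 4). Hsd17b3, which in the foetal testis converts androstenedione to testosterone in Sertoli cells, fell by 1.83 ± 0.30. Dmrt1, Inhbb, Gdnf and Vnn1 each fell by 1.10 to 1.39.

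The decrease was not shared by every marker. Amh, the anti-Müllerian hormone, had few counts in this 3′ assay before culture (6.22, 13.8, 5.71 and 8.78 CPM) and had 5.36, 4.46, 3.64 and 5.50 CPM after it (-0.87 ± 0.46, FDR 0.178). Aard (-0.40) and Nr0b1 (-0.34) also missed the test, although Aard was called without 24 h replicate 2 (-0.59). Defb19, a β-defensin of Sertoli cells, had 447, 396, 302 and 475 CPM and then 713, 361, 357 and 456 CPM (0.22 ± 0.18, FDR 0.438), and its sign turned without 24 h replicate 2 (-0.051). Sry had no count in any of the 8 libraries.

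One 24 h library differed from the others in this list. Summed Sertoli markers were 3842, 3823, 3259 and 3541 CPM at 0 h and 2993, 1895, 1855 and 1970 CPM at 24 h, and the high value belonged to replicate 2. Without it 17 markers fell. Under other settings 13 fell without composition factors, 11 without the 2 deepest libraries, 16 with abundance offsets, 10 with glmTreat and 8 with voom and treat. XX cells, which have few Sertoli transcripts (335 to 514 CPM summed over the list), had 3 markers that rose and 2 that fell. Over all 15390 genes 806 rose and 362 fell in XX cells. The XY change was lower than the XX change by the test of the difference in 8 of 20, against 513 of 15390 genes. Among the 8, Ptgds, Mro and Defb19 rose in XX cells, and Cbln4 and Gdnf had at most 2.39 CPM there.

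Transcription factors that the early gonad of both sexes expresses went in both directions, and 1 of 10 was called (background 14.3%). Nr5a1, the steroidogenic factor (chromosome 2, 38581468 to 38604642, reverse strand), fell from 269 to 280 CPM to 155 to 182 CPM (-0.69 ± 0.10, FDR 2.26e-07), and the median of the list was -0.02. Wt1 (-0.49) and Gata4 (-0.42) had FDRs of 0.000309 and 0.00296 but lay under the 1.5-fold limit. Tcf21 had 111 to 179 CPM and then 193 to 237 CPM (0.57, FDR 0.00173, without overlap), and also lay under it. Lhx9, Gata6, Emx2 and Zfpm2 had log2 fold changes between -0.14 and 0.16 and FDRs of at least 0.451.

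Of the pre-granulosa list, genes typical of the foetal ovary, 5 of 10 tested members rose (background 8.76%) and 2 fell (background 5.56%) in the testis. Wnt4, a ligand of the ovarian pathway that is also made in the testis interstitium, had 61.2, 51.9, 59.5 and 44.3 CPM at 0 h and 117, 147, 106 and 111 CPM at 24 h (1.15 ± 0.13, FDR 1.7e-09). Bmp2, a BMP ligand, rose by 1.45 ± 0.23, Axin2, a target of canonical Wnt signalling, by 1.00 ± 0.19 and Rspo1, a Wnt agonist, by 0.77 ± 0.13. Runx1, a transcription factor of supporting cells, fell by 1.72 ± 0.28 and Irx5, a homeobox gene, fell by 2.59 ± 0.71 from at most 2.30 CPM, with a log2 fold change of -3.38 without 24 h replicate 3. Foxl2, which defines granulosa cells, stayed under 10 CPM in each XY library, with 0.58 to 1.55 CPM before and 1.97 to 6.94 CPM after culture. Its call (1.86 ± 0.57, FDR 0.0132) was lost without 24 h replicate 3 (1.47, FDR 0.0954). The summed list held 175 to 188 CPM in XY cells at 0 h and 282 to 337 CPM at 24 h, against 1756 to 2201 CPM in the XX libraries.

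Foetal Leydig cell genes rose over the same day in which the Sertoli ligand Dhh fell. The list of 9 tested markers had 5 that rose (background 8.76%) and 1 that fell, with a median of 1.08. Cyp11a1, which makes the first steroid from cholesterol (chromosome 9, 57913694 to 57935933), stood at 29.0, 27.7, 30.9 and 41.7 CPM before culture and 132, 147, 118 and 177 CPM after it (2.13 ± 0.27, edgeR FDR 2.94e-08). Hsd3b1, the next enzyme of the pathway (chromosome 3, 98757367 to 98767116, reverse strand), had 75.2, 58.2, 77.5 and 118 CPM and then 423, 347, 389 and 603 CPM (2.40 ± 0.19, FDR 1.46e-14). Hsd3b6 is a near-identical copy of Hsd3b1, and the copy fell. In 24 h replicate 5 Hsd3b1 had 603 CPM and Hsd3b6 1.57 CPM, so few Hsd3b1 reads can have been counted as Hsd3b6. Whether Hsd3b6 reads were counted as Hsd3b1 at 0 h was not tested. The 2 genes together had 181, 145, 177 and 256 CPM at 0 h and 444, 350, 392 and 605 CPM at 24 h, a 2.36-fold higher mean with no overlap. Lhcgr, the receptor of luteinising hormone, rose by 2.09 ± 0.33 from 2.07 to 8.34 CPM to 14.7 to 24.6 CPM. Prlr, the prolactin receptor, rose by 2.51 ± 0.17, from 21.8 to 31.1 CPM to 139 to 185 CPM. Cyp17a1, the enzyme that leads to androgens, had 25.9, 27.7, 33.8 and 91.3 CPM at 0 h and 82.2, 85.5, 95.3 and 124 CPM at 24 h, so that 0 h replicate 6 overlapped the cultured libraries. Its log2 fold change was 1.08 ± 0.25, and 1.73 without that replicate.

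Star, which carries cholesterol into the mitochondrion, did not pass (35.2 to 53.8 CPM and 45.6 to 59.7 CPM, 0.23, FDR 0.42), nor did the lipoprotein receptor Scarb1 (0.43). Fdxr, the reductase that supplies electrons to Cyp11a1, fell by 0.63 ± 0.13, a decrease that was not called without composition factors, without the 2 deepest libraries, without 0 h replicate 6 (-0.53) or without 24 h replicate 3 (-0.58). The 5 genes that rose did so under each of those settings. Summed Leydig markers reached 434 to 651 CPM at 0 h and 1060 to 1398 CPM at 24 h. In XX cells 4 of the 9 markers rose (background 806 of 15390), namely Star, Hsd3b1, Scarb1 and Prlr, with a median of 0.97. By the test of the difference, the XY change was more positive than the XX change in 3 of the 9 and more negative in 3. Cyp11a1 was the 1 marker that fell in XX cells, by 1.05, and its change differed from that in XY cells by 3.18 ± 0.45 (FDR 1.23e-06). Star had the opposite pattern, with a rise of 1.17 in XX cells and a difference of -0.94 ± 0.27 (FDR 0.0242).

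Target genes of hedgehog signalling were not called lower. Gli1, a direct target of the pathway, rose by 0.78 ± 0.17 from 42.6 to 78.1 CPM to 84.7 to 116 CPM, and Ptch1, the receptor, had 112 to 163 CPM and 143 to 221 CPM (0.31, FDR 0.128). Of the 8 genes of the pathway 3 rose (background 8.76%) and 1, Dhh, fell (background 5.56%). Gli2, another factor of the pathway that rose, was at the limit (0.60 ± 0.20) and its call was lost without any one of 4 libraries.

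Among ERK feedback genes, which report on FGF and MEK signalling, 3 of 12 fell (background 5.56%) and none rose. Dusp4, an ERK phosphatase, had 36.3, 34, 33.3 and 31.6 CPM at 0 h and 12.2, 10.7, 11.9 and 12.2 CPM at 24 h (-1.53 ± 0.28, FDR 3.98e-05). Etv5, an ETS factor downstream of FGF, fell by 0.75 ± 0.18. Etv4, a related factor, was the third (-0.97), and its call was lost without 0 h replicate 2 (FDR 0.0582) or 24 h replicate 3 (FDR 0.0593). Dusp6 and Spry4, negative regulators of the same pathway, had -0.43 and -0.49 and did not pass.

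Smooth muscle, pericyte and matrix genes made up a further group of increases. Acta2, smooth muscle actin (chromosome 19, 34217737 to 34232990, reverse strand), had 80.3, 76.6, 89.4 and 112 CPM before culture and 359, 311, 315 and 355 CPM after it, a 3.71-fold increase (1.89 ± 0.13, edgeR FDR 3.1e-16). Tagln, an actin-binding protein of the same cells, rose by 1.96 ± 0.22 from 6.18 to 15.4 CPM to 39.2 to 49.1 CPM. In total 4 of 12 contractile genes rose (background 8.76%) and none fell, while Cald1 (-0.08) and Tpm1 (-0.04), which many cell types express, did not pass. Of 7 pericyte genes 5 rose (background 8.76%). Kcnj8 and Abcc9, the 2 subunits of a potassium channel of pericytes, rose by 2.85 ± 0.37 and 2.98 ± 0.38, and Pdgfrb, the receptor for platelet-derived growth factor B, had 66.9, 55.9, 65.7 and 75.5 CPM and then 159, 213, 149 and 180 CPM (1.40 ± 0.17). Rgs5, a commonly used pericyte marker, had 9.33 to 10.5 CPM and 8.63 to 12.2 CPM and did not pass (0.16, FDR 0.749).

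Interstitial progenitor genes rose in part, with 4 of 10 higher (background 8.76%) and 1 lower. Pdgfra, a receptor of interstitial cells, rose by 0.74 ± 0.15 and the transcription factor Maf by 0.67 ± 0.14. Nr2f2 (0.07), a nuclear receptor that marks these progenitors, did not pass, and Col14a1, a fibril-associated collagen, fell by 0.93 ± 0.14. Of 19 matrix genes 13 rose (background 8.76%) and 1 fell. Col1a1, a chain of type I collagen, had 229, 201, 214 and 262 CPM and then 571, 757, 538 and 522 CPM (1.40 ± 0.13, FDR 4.27e-12). Col6a1, a chain of type VI collagen (chromosome 10, 76543440 to 76562283, reverse strand), rose by 1.46 ± 0.10 from 121 to 142 CPM to 329 to 402 CPM (FDR 2.51e-16). Tnc, tenascin C, rose by 1.78 ± 0.26, and Postn and Lox, a matrix protein and the enzyme that cross-links collagen, by 1.54 ± 0.28 and 1.49 ± 0.26. The basement membrane genes Col4a1 (0.34), Nid1 (-0.01) and Lama1 (-0.24) did not pass. Sparc, a matrix glycoprotein with many counts, fell by 0.61 ± 0.10 and was not called without 0 h replicate 2 (-0.58), 24 h replicate 3 (-0.52) or 24 h replicate 4 (-0.53). Without the 2 deepest libraries 8 of the 19 matrix genes rose, and with abundance offsets 15 did. In XX cells 9 rose (background 806 of 15390).

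**Figure D3:**
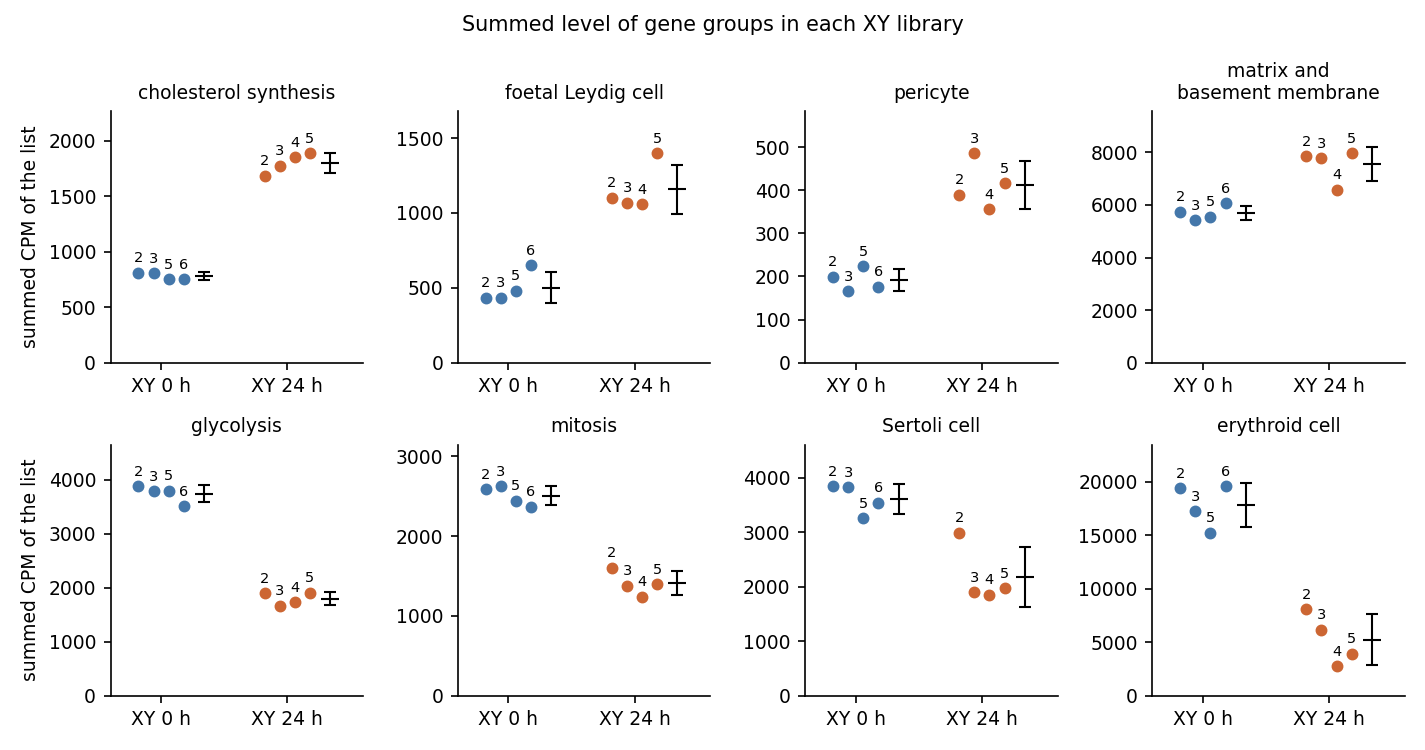
Summed CPM (y axes, from 0) of 8 gene groups in each XY library at 0 h (blue) and 24 h with DMSO (orange), with the replicate number above each point and the mean ± SD of 4 libraries at the side. The 2 times do not overlap in any panel, and 24 h replicate 2 has the highest Sertoli (2993) and erythroid (8107) sums of its group.

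Endothelial genes were followed in a general list and in a list of arterial and Notch genes, whose changes were not tested against each other. Of 18 general endothelial genes 2 fell (background 5.56%) and none rose (background 8.76%), with a median of 0.18. Cdh5, the endothelial cadherin, had 32.8 to 49.6 CPM at 0 h and 45.8 to 61.4 CPM at 24 h (0.31, FDR 0.365), and Kdr, the main VEGF receptor, had 38.0 to 46.1 CPM and 42.2 to 55.4 CPM (0.19, FDR 0.521). Pecam1, an adhesion molecule of endothelium, was at 0.08 (FDR 0.851) and changed sign under some settings. The 2 that fell were Plvap, a protein of fenestrated capillaries (-1.28 ± 0.36), and Tal1, a transcription factor of blood and endothelium (-1.90 ± 0.46). The VEGF receptor Flt1 (0.72, FDR 0.0504) and the transcription factor Sox18 (0.76, FDR 0.0978) did not pass. Of 11 arterial and Notch genes 10 rose (background 8.76%), and 6 of the 11 had no overlap between the groups (background 21.9%). Notch1, a Notch receptor (chromosome 2, 26347915 to 26406675, reverse strand), had 27.5, 34, 28.1 and 27.2 CPM and then 63.3, 73.9, 64.6 and 52.3 CPM (1.13 ± 0.15, edgeR FDR 1.21e-07). Nrp1, a VEGF co-receptor, rose by 1.47 ± 0.17 from 36.9 to 53.9 CPM to 91.9 to 160 CPM, against 0.10 in XX cells (difference 1.37 ± 0.24, FDR 8.71e-05). Gja5, an arterial connexin, rose by 1.41 ± 0.32, with 24 h replicate 3 (11.9 CPM) inside the 0 h range of 5.76 to 13.8 CPM. The same replicate lay inside the 0 h range for Gja4 (22.6 CPM), Dll4 (5.70 CPM) and Hey1 (20.1 CPM), and 24 h replicate 5 did for Hey2 (3.93 CPM). The calls of Dll4 and Sox7 were each lost without any of several single libraries, 24 h replicate 4 among them (FDR 0.262 and 0.128). The count of arterial genes that rose was 6 without the 2 deepest libraries, 6 with the replicate block and 3 with glmTreat. Several of these genes, Notch1, Nrp1 and Jag1 among them, are also expressed outside vessels.

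Erythroid transcripts were lower after culture. All 10 tested erythroid genes fell (background 5.56%, median -2.02). Their sum went from 19389, 17228, 15230 and 19579 CPM to 8107, 6172, 2759 and 3927 CPM. Hba-x, an embryonic globin, fell from 2455 to 2990 CPM to 932, 156, 33.6 and 37.0 CPM (-3.29 ± 0.77, FDR 0.00101, and -5.20 without 24 h replicate 2, which held the highest value). The adult globin Hba-a1 had 3242 to 4045 CPM and then 2129, 1677, 923 and 1351 CPM (-1.29 ± 0.30). Hbb-y, another embryonic globin, had 3304 to 4059 CPM and then 1988, 474, 113 and 147 CPM (-2.47 ± 0.77), a call lost without 24 h replicate 4 (FDR 0.0615) or 5 (FDR 0.0503). The largest count of any gene stayed between 8100 and 9710 whatever the total. Whether this limited the values of the most abundant globins, and so their changes, was not tested. Of 14 macrophage genes 3 fell (background 5.56%) and none rose, namely the complement gene C1qb (-1.12 ± 0.32), the chemokine Pf4 (-2.63 ± 0.73) and the chemokine receptor Cx3cr1 (-1.10 ± 0.41), whose call was lost without any one of 5 libraries. None of the 14 was called without the 2 deepest libraries or with thinned counts, and 1 was called with the replicate block.

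Germ cell markers, which the GFP gate was meant to remove, were present at low level in both groups. Dazl, an RNA-binding protein of germ cells, had 49.2 to 78.3 CPM at 0 h and 33 to 51.5 CPM at 24 h (-0.60 ± 0.24, FDR 0.0645), a decrease that was called without 0 h replicate 6 (FDR 0.0441) or 24 h replicate 2 (FDR 0.0454), and Ddx4 had 4.28 to 7.02 CPM and 5.20 to 9.83 CPM (0.32, FDR 0.65). Of 10 tested markers 1 rose (background 8.76%) and 2 fell (background 5.56%). Stra8, which opens meiosis in XX germ cells, was at 16.1, 13.2, 11.4 and 11.4 CPM in XY cells at 0 h and at 1.43, 0.74, 1.34 and 0 CPM at 24 h (-3.71 ± 0.54, FDR 4.41e-07). Markers of the coelomic epithelium, which covers the gonad, had 5 of 7 higher (background 8.76%) and 1 lower. Krt19, a keratin, rose by 2.17 ± 0.19 from 10.5 to 16.2 CPM to 50.1 to 71.3 CPM and Upk3b, a uroplakin of mesothelium, by 1.23 ± 0.15. Krt8, a keratin that Sertoli cells also express, fell by 1.37 ± 0.22. Of 8 tested genes of mesonephros and duct epithelium 2 rose (background 8.76%), with a median of 1.09 at low levels. The count was 0 with the replicate block, without the 2 deepest libraries or without 24 h replicate 3. The duct genes Pax2 (9 counts over the 8 libraries) and Cdh16 (0 to 0.96 CPM) were near 0 in both groups.

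Genes of cell division fell. All 16 tested mitotic genes were lower at 24 h (background 5.56%), with a median of -0.94. None of the 16 overlapped between the groups, where 21.9% of all genes had no overlap in either direction. Ccnb1, cyclin B1 (chromosome 13, 100915153 to 100923116, reverse strand), had 165, 146, 112 and 133 CPM before culture and 79.4, 46.8, 56.4 and 59.0 CPM after it (-1.21 ± 0.16, edgeR FDR 6.4e-08). Aurkb, a mitotic kinase, fell by 1.17 ± 0.19, Cdc20, an activator of the anaphase complex, by 1.09 ± 0.15, and Mki67, the proliferation antigen, by 0.72 ± 0.14. Summed over the list, mitotic genes had 2586, 2622, 2444 and 2369 CPM and then 1605, 1380, 1242 and 1400 CPM. Without composition factors 14 of the 16 fell, as many as without the 2 deepest libraries or with abundance offsets, and 8 passed glmTreat. Of 17 DNA replication genes 6 fell (background 5.56%) and none rose, with a median of -0.58. Rrm2, a ribonucleotide reductase subunit, had 119 to 138 CPM and 63.2 to 73.9 CPM (-0.89 ± 0.11), while the helicase subunits Mcm2 (-0.21) and Mcm4 (-0.24) and the clamp Pcna (-0.30) did not pass. Without composition factors 2 replication genes were called. In XX cells 4 mitotic genes and 1 replication gene fell (background 362 of 15390). The XY decrease was larger by the test of the difference for Bub1b, a checkpoint kinase (-1.26 ± 0.28, FDR 0.00184), for Cdc20 (-0.73 ± 0.22, FDR 0.0372) and for Rrm2 (-0.75 ± 0.16, FDR 0.000925).

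Stress programmes gave no common direction by counts of calls (backgrounds 8.76% higher and 5.56% lower for each list). Summed levels were lower at 24 h without overlap for the heat shock (2242 to 2588 CPM, then 1713 to 2231), integrated stress, unfolded protein and NRF2 lists. The p53 sum was higher (285 to 314 CPM, then 326 to 361), and the immediate-early sums overlapped. Sums weigh abundant genes most, and the median change fell with abundance. Of 20 immediate-early genes 1 rose and 1 fell, and Fos (0.20) and Egr1 (0.35), both factors of fast responses, did not pass. Fos had 399 to 579 CPM at 0 h and 305 to 661 CPM at 24 h, and its sign turned without the 2 deepest libraries (-0.011). None of 10 heat shock genes passed, with Hspa1a at 2.88 to 8.09 CPM and 8.18 to 9.30 CPM (0.62, FDR 0.22). The integrated stress response list had 1 gene higher and 3 lower of 17. The 3 were Phgdh and Psat1, enzymes of serine synthesis (-0.78 ± 0.14 and -0.74 ± 0.18), and Asns, asparagine synthetase (-0.72 ± 0.17). In the unfolded protein response list 1 of 12 rose and 2 fell, and the chaperone Hspa5 had 929 to 1172 CPM at 0 h and 690 to 872 CPM at 24 h, under the 1.5-fold limit (-0.49). Of 11 NRF2 and metallothionein genes 7 fell (background 5.56%) and none rose. Mt2, a metal-binding metallothionein, had 29.5, 17.9, 14.8 and 21.1 CPM and then 8.58, 2.23, 6.33 and 6.68 CPM (-1.84 ± 0.30, FDR 5.63e-06), and Mt1 fell by 1.01 ± 0.18. Of these, 3 were called without composition factors, and 3 without the 2 deepest libraries. By the test of the difference, the XY change was more negative than the XX change in 4 of the 11. It was also more negative in 6 of the 12 unfolded protein genes, against 513 of 15390 genes, and more positive in none of either list. Of 12 p53 targets 2 rose, and Cdkn1a, the cell cycle inhibitor, did not pass (0.37, FDR 0.181). The mitochondrially encoded list had 1 of 9 lower, mt-Cytb, a gene of the respiratory chain (-0.62), which was not called without composition factors or without any one of 4 libraries.

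Growth factor, hormone and other signalling genes were also examined. Inhba, the activin A subunit, had 26.4, 33.4, 37.1 and 53.6 CPM at 0 h and 170, 234, 154 and 213 CPM at 24 h (2.34 ± 0.18, edgeR FDR 5.74e-15). Igf1, insulin-like growth factor 1, had 50.3, 52.4, 50.9 and 44.8 CPM and then 157, 176, 165 and 158 CPM (1.73 ± 0.13, FDR 7.75e-15), and in XX cells 0.44 (difference 1.29 ± 0.18, FDR 8.54e-07). The binding protein Igfbp3 rose by 1.41 ± 0.19 and the arrestin-like Txnip, which follows glucose supply, by 1.01 ± 0.22. In all, 6 of 12 genes of the glucose, FOXO and insulin list rose (background 8.76%) and none fell. Cxcl12, a chemokine of mesenchyme, rose by 1.11 ± 0.12 and Cxcl2, a neutrophil chemokine, went from 3.81 to 13.2 CPM to 0, 0.74, 0 and 0 CPM (-5.09, and -7.38 without 24 h replicate 3, fitted values that depend on the prior count), while the other 8 tested inflammation genes did not pass. For each of the other lists the backgrounds were 8.76% higher and 5.56% lower. In these, 3 of 12 BMP and TGF-beta genes rose and 1 fell, and 2 of 11 retinoic acid genes rose and 1 fell. Of 14 interferon genes 3 rose and 1 fell, and of 10 SRF and YAP targets 3 fell and none rose. In the clock list 1 of 13 rose and 1 fell, in the imprinted list 2 of 11 rose, and in the glucocorticoid list 2 of 6 rose, Tsc22d3, a glucocorticoid-induced factor (0.99 ± 0.15), and Nr3c1, the receptor itself (0.90 ± 0.15).

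The largest single changes were chosen by one rule (called, no overlap, mean of at least 10 CPM over the 8 libraries) and are given as a description. The largest increase was that of Adam23, a membrane protein of the disintegrin family, from 1.04, 0.58, 2.85 and 2.19 CPM to 26.8, 53.5, 33.2 and 21.6 CPM (4.27 ± 0.39, edgeR FDR 3.61e-12). Nts, the peptide neurotensin, followed at 4.13 ± 0.38, with 24 h values that ranged from 31.0 to 138 CPM. Pgf, a ligand of the VEGF family, went from 3.81 to 9.22 CPM to 41.3 to 48.1 CPM (2.98 ± 0.22). Aspn, a small proteoglycan (3.86), Lgi2 (3.76), Pdlim3, a muscle LIM protein (3.38), Tubb3, a neuronal tubulin (3.07), and Tmem119 (2.91) also met the rule, as did Abcc9 and Scd1. Nefm, a neurofilament, was among them at 3.59 ± 0.81, but it reached 160 CPM in 24 h replicate 3 and 10.0 to 13.4 CPM in the other cultured libraries. Without that replicate its log2 fold change was 1.54 (FDR 0.177).

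Blood genes led the decreases. Slc4a1, the anion exchanger of red cells, had 30.1 to 44.8 CPM at 0 h and 0.39 to 3.72 CPM at 24 h (-4.14 ± 0.49), and the globins Hbb-bh1 (-3.87), the pseudogene Hbb-bh0 (-3.57) and Hba-x were close behind, with Car2, a carbonic anhydrase of red cells and other types, at -3.19. Hsd3b6 had 106, 86.4, 99.4 and 137 CPM before culture and 21.5, 3.47, 2.49 and 1.57 CPM after it (-4.0 ± 0.44, and -5.34 without 24 h replicate 2). How many of its reads were counted as those of its near-identical copy Hsd3b1 was not tested. Without 24 h replicate 2 the decreases of Hbb-bh1, Hbb-bh0 and Pdzk1ip1 were also larger, at -5.72, -5.84 and -3.72 against -2.87 for Pdzk1ip1 with it. Other genes of the list were Cnga1, a cyclic nucleotide-gated channel, with 30.0 to 43.9 CPM and then 2.73 to 3.54 CPM (-3.55 ± 0.41), Ccl17, a chemokine (-3.31), Mall (-3.26), Col2a1, type II collagen (50.1 to 56.2 CPM and 3.47 to 9.21 CPM, -3.07 ± 0.37), and Zar1 (-3.03).

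**Figure D4:**
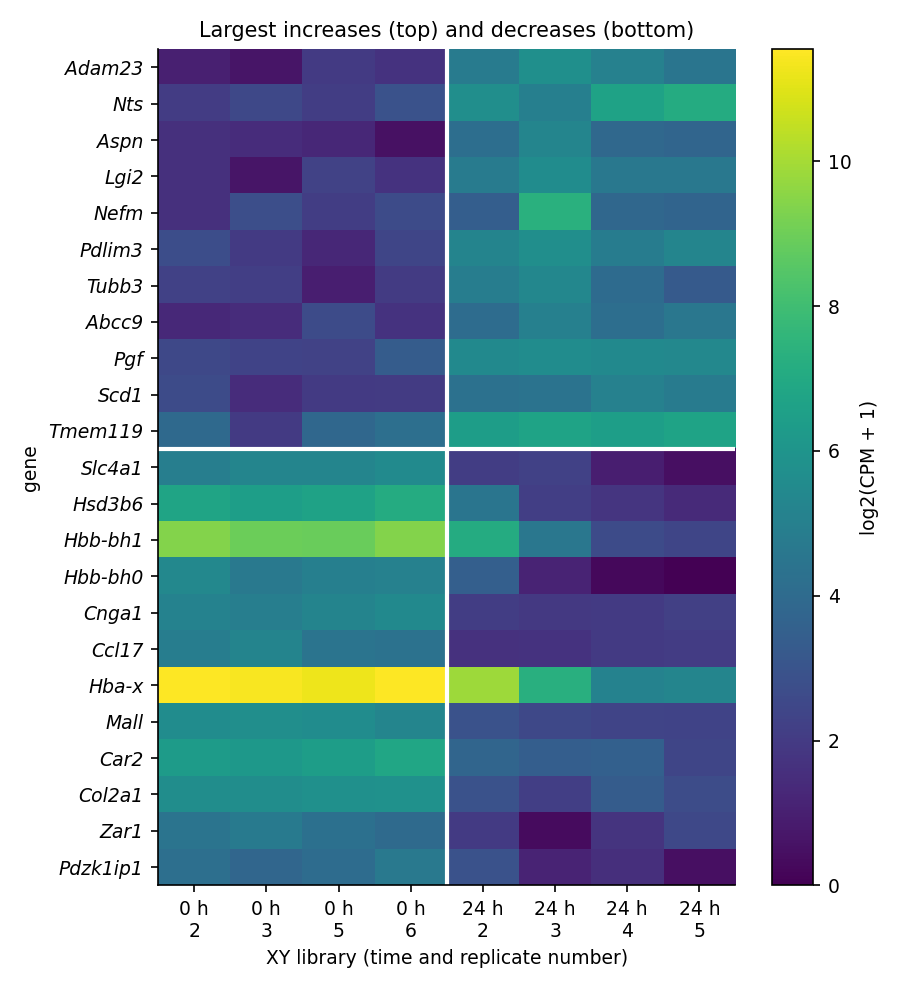
Level in each XY library of 23 genes chosen for the size of their change, 11 that rose above 12 that fell (columns, by time and replicate number), coloured by log2(CPM + 1). Nefm is high in 24 h replicate 3 (160 CPM), and Hba-x, Hbb-bh1 and Hsd3b6 stay higher in 24 h replicate 2 than in the other cultured libraries.

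The change in the testis was compared with the change in the ovary over the same day to ask how much of it the sexes share. In XX cells 1168 genes were called, 806 of them higher. Of the XY calls, 440 were also called in the same direction in XX cells, 63 in the opposite one and 1700 in XY cells alone, of which 444 also passed the test of the difference. That test called 922 genes (5.99% of those tested), 409 with a more positive change in XY cells and 513 with a more negative one. Pdlim3 had a log2 fold change of 3.38 in XY cells and 0.31 in XX cells (difference 3.07 ± 0.73, edgeR FDR 0.00381). Aplnr, the apelin receptor, rose by 0.90 in XY cells, from 23.6 to 45.7 CPM to 53.5 to 86.5 CPM, and fell by 2.46 in XX cells (difference 3.36 ± 0.44, FDR 1.99e-07). Npnt, nephronectin, rose by 1.39 in XY and fell by 1.73 in XX cells (3.11 ± 0.35, FDR 5.13e-09). For Smim10l2a the difference of 4.42 ± 0.52 lay in XX cells, where it went from 58.6 to 66.5 CPM to 1.91 to 7.49 CPM, while XY cells had 0.95 to 6.79 CPM at both times. Fst, follistatin of the pre-granulosa list, had a difference of 2.75 ± 0.49. In XX cells Fst fell by 1.51, from 205 to 304 CPM to 69.9 to 120 CPM. In XY cells it had at most 4.72 CPM and its change was not called (1.24, FDR 0.0542).

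Some of the most negative differences belonged to meiotic genes that rose in XX cells. Sycp1, a protein of the synaptonemal complex, had 0.89 to 3 CPM at 0 h and 25.8 to 39.9 CPM at 24 h in XX cells, against 4.39 to 15.0 CPM and 3.54 to 6.08 CPM in XY cells (difference -5.04 ± 0.60, FDR 1.76e-08). Smc1b, a meiotic cohesin, had a difference of -3.90 ± 0.39 and Stra8 one of -8.59 ± 0.88. Germ cell markers moved with them, since 6 of 10 rose in XX cells (background 806 of 15390), Dazl by 1.70. The part of germ cells in these differences was not tested. The remaining ones were Slc35f1 (-4.58 ± 0.70), Mall (-4.42 ± 1.01), Bricd5 (-3.37 ± 1.03) and Ablim3, an actin-binding LIM protein (-3.08 ± 0.47). Mall went from 37.8 to 51.3 CPM to 3.93 to 6.44 CPM in XY cells and Bricd5 from 31.9 to 55.3 CPM to 15.0 to 21.5 CPM, while both stayed at or under 1.58 CPM in XX cells. Of the Sertoli list the difference was called for Inhbb (-1.32), Fgf9 (-1.31), Vnn1 (-1.56), Mro (-2.53), Gdnf (-2.18), Cbln4 (-4.82), Ptgds (-1.82, whose own XY decrease was lost without 0 h replicate 2 or 24 h replicate 4) and Defb19 (-1.44), and for the pre-granulosa gene Wnt4 it was 1.47 ± 0.17 (FDR 1.98e-08).

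**Figure D5:**
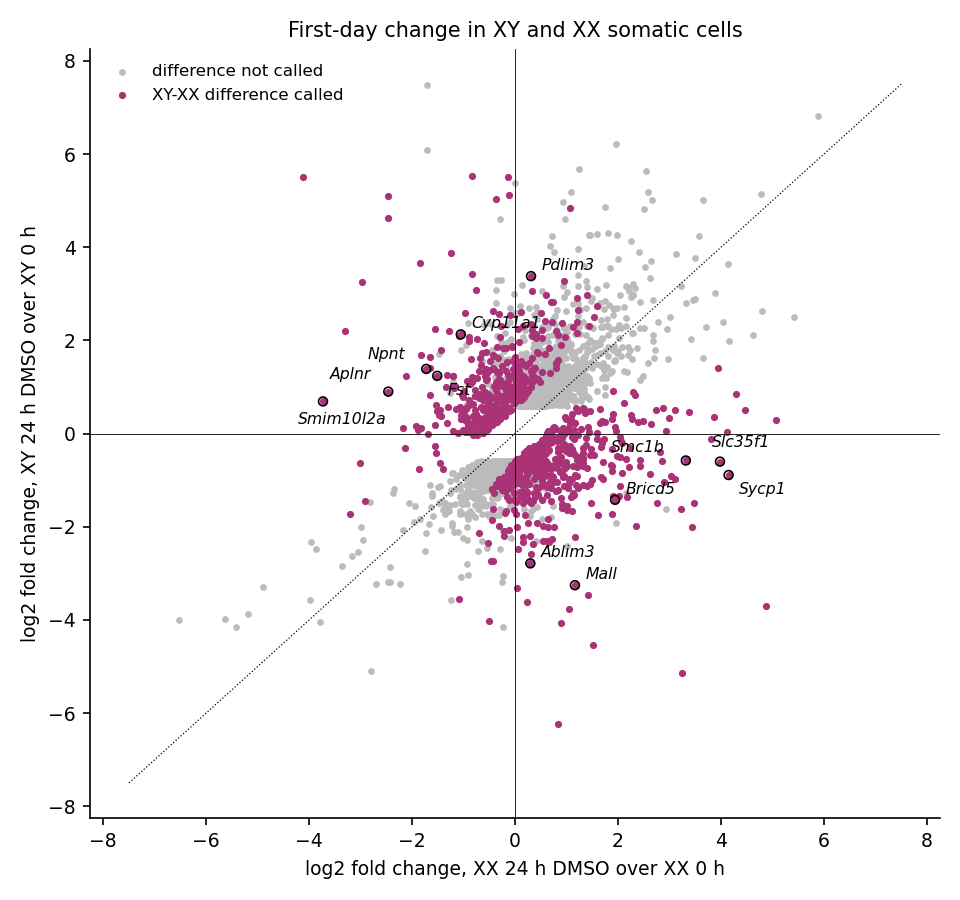
Log2 fold change over the first day in XX cells (x axis) and XY cells (y axis) of genes called in XY cells or for the difference, with those called for the difference in purple, the dotted line at equal change and the 12 largest differences with a mean of at least 10 CPM ringed and named. Sycp1, Smc1b and Slc35f1 lie far to the right, and Cyp11a1 (2.13 in XY, -1.05 in XX) lies in the upper left.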

How the data were processed

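The authors sequenced 3′ RNA libraries with unique molecular identifiers and deposited a table of counts per gene for the somatic cells. For the germ cell table their methods name scPipe and Rsubread, the GRCm39 genome with GENCODE annotation, the use of strand and the addition of lanes, and for the somatic table the submitters' processing notes name GRCm39, edgeR and limma without their roles. The counts were not normalised. Names and positions came from a GENCODE M39 annotation of GRCm39 (40391 of 42422 identifiers matched). One column (1 of the table) matched no sample in the labels and was not used, which left 39 libraries in 10 groups.

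Genes were kept with edgeR's filterByExpr, scaled by TMM and tested with edgeR 4.0.16 (quasi-likelihood, R 4.3.3) with 1 mean per group over all 39 libraries. A gene was called at a Benjamini-Hochberg FDR below 0.05 and a change of at least 1.5-fold. Error terms are standard errors of the log2 fold change. The difference between XY and XX changes was tested in the same fit. Single values were compared with 2-sided exact permutation tests. Each replicate is a pool of gonads, and p-values measure the spread between these pools. Library totals set the precision, and at a few CPM a gene rests on a handful of counts.

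Genes were named from the gene lists and by rule as the 12 largest increases and 12 largest decreases (called, without overlap, mean of at least 10 CPM) and the 6 largest differences in each direction (called for the difference, mean of at least 10 CPM over the 16 libraries). Predicted genes and ribosomal protein pseudogenes were left out of both. Individual list members were then named by role or by their call. Some genes are not reported here by name, 1 of the 12 largest increases among them, but counts and list values include them. The comparison, the lists and their members were chosen with earlier results of these data known. Alternatives were RLE scaling, no composition factors, other filters, DESeq2 1.42.0, glmTreat, limma 3.58.1 with voom, fewer libraries, thinned counts, a replicate block and leaving out each library. Leaving out the 2 deepest libraries and abundance offsets were added after seeing the data. The scripts were tested on simulated data.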

Additional observations from a re-analysis of the deposited data

Results flagged for a closer look

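In 156 groups of 4 values (the summed lists, the genes chosen by rule and 5 library measures, in each XY group), 13 held a value farther from the other 3 than Dixon's limit for 4 values allows. Chance flags about 1 in 20 such groups, or 7.8 of 156. Before culture these were Pgf in replicate 6 (9.22 CPM against 3.81 to 4.66) and the imprinted list in replicate 3 (4181 CPM against 4492 to 4532). After culture, replicate 2 stood apart for Hsd3b6 (21.5 CPM against 1.57 to 3.47), Hbb-bh1 (136 CPM against 4.32 to 22.6), Hbb-bh0 (10.4 CPM against 0 to 1.24), Hba-x (932 CPM against 33.6 to 156) and the Sertoli list (2993 CPM against 1855 to 1970). Replicate 3 stood apart for Nefm (160 CPM against 10.0 to 13.4), Lgi2 (48.1 CPM against 23.4 to 27.2), the interstitial list (2387 CPM against 2070 to 2111) and the glucose, FOXO and insulin list (1763 CPM against 1584 to 1609). The matrix list was low in replicate 4 (6588 CPM against 7769 to 7964) and the foetal Leydig list was high in replicate 5 (1398 CPM against 1060 to 1103).

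The change over the first day differed between XY and XX cells, by the edgeR test of the difference, in 922 genes. The largest differences among genes with a mean of at least 10 CPM over the 16 libraries were Smim10l2a (4.42), Aplnr (3.36), Cyp11a1 (3.18), Npnt (3.11), Pdlim3 (3.07) and Fst (2.75) in the positive direction, and Sycp1 (-5.04), Slc35f1 (-4.58), Mall (-4.42), Smc1b (-3.90), Bricd5 (-3.37) and Ablim3 (-3.08) in the negative one.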

How the results depend on the processing

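Of the 2203 XY calls and the 922 calls of the difference between XY and XX, glmTreat left 694 and 261, voom with quality weights and treat 426 and 120, and the fit with the replicate block 1353 and 264. Libraries with the same number did not deviate together (correlations of 0.03, -0.04 and -0.15 in 3 pairs), and not every library correlated best with its own number, so that block is not a paired design. Thinning to the smallest total left 534 differences, and leaving out the 2 deepest 24 h libraries left 1345 XY calls. Leaving out 1 library gave 1800 to 2303 XY calls and 781 to 962 differences, lowest in both without 24 h replicate 3. In 3 genes that were not called the sign turned, Defb19 without 24 h replicate 2 (-0.051, with a range of -0.051 to 0.34 over the libraries left out), Fos without the 2 deepest libraries (-0.011) and Pecam1 with the block (-0.083), with thinned counts (-0.022), without 24 h replicate 4 (-0.058, with a range of -0.058 to 0.22), without the 2 deepest libraries (-0.069) and with abundance offsets (-0.016). The cause was not tested. Of 267 values of single genes 240 were called, and the calls lost numbered 114 with glmTreat, 134 with voom, 58 without the 2 deepest libraries, 24 without composition factors and 5 with DESeq2.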
